A study of Mus musculus with 6 samples.

Results

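The genes described are 7 transcription factors of the choice between the granulocyte and the monocyte fate in mouse blood progenitors: the C/EBP factors Cebpa, Cebpb, Cebpd, Cebpe and Cebpg, and the factors Gfi1 and Irf8. They were chosen by name, and all 7 were among the 12161 genes with a value. Messenger RNA was sequenced in 6 libraries of LSK cells, a bone marrow fraction without lineage markers but with Sca1 and Kit on its surface, which holds stem cells and early progenitors. In 3 libraries the cells carried MIG-Hhex, a retrovirus with GFP and the homeobox factor Hhex, and in 3 libraries they carried MIG, the same vector without Hhex. All cells came from C57BL/6 mice labelled wild-type, were sorted as LSK before infection, grew for 2 days with IL-3, IL-6, stem cell factor and Flt3 ligand, and were then sorted for GFP. Hhex was thus added to cells that keep their own Hhex gene, and the RNA is that of a cultured population and not of freshly isolated stem cells.

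Each replicate, WT3, WT691 and WT703, gave 1 library per vector. The submitters call them biological replicates. Whether a number stands for 1 mouse or a pool is not given in the sources used here, so the p-values measure the spread between these samples. The labels place both WT3 libraries on flow cell C3RJFACXX and the other 4 on flow cell C5LWPANXX. The WT3 libraries stood apart: Ly6a, which encodes the Sca1 antigen used to sort LSK cells, had log2 values of 3.55 with MIG-Hhex and 3.18 with MIG in WT3, and of 5.89 to 6.25 in the other 4 libraries. Kit lay between 4.44 and 4.86 in all 6. The deposited values are normalized log2 values with library medians between 3.56 and 3.60. They look like expression per unit of gene length, though the sources used here do not say so. Read depth is unknown, so no counting error can be given. Hhex itself had log2 values of 7.61, 9.34 and 9.06 with MIG-Hhex, against 5.18, 5.05 and 5.13 with MIG, in the order WT3, WT691 and WT703. That order holds for every set of 3 values given here.

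C/EBP proteins are basic leucine zipper factors that bind DNA as pairs and act at successive steps of granulocyte formation. Cebpa is needed to leave the multipotent state for the granulocyte and monocyte path, Cebpe for the late steps in which neutrophils fill their secondary granules, and Cebpb and Cebpd act in emergency and inflammatory responses. Cebpg lacks a strong activation domain and pairs with the others. Gfi1 is a zinc finger repressor that favours granulocytes, and Irf8, an interferon regulatory factor, favours monocytes and dendritic cells and holds back neutrophil formation.

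Promoter entries in RefSeq for GRCm38.p6 were matched for Cebpa, Cebpb, Cebpg, Gfi1 and Irf8, 5 of the 7 genes. Each runs from 250 bases before to 50 bases after a start site. The promoters of Gfi1 and Irf8 are shown because they were the only ones among these entries to hold a searched motif. The motifs were TTGCNNAA for C/EBP factors, GAGGAA for PU.1 and AAATCA for the core of the GFI1 site, each on both strands. The Gfi1 promoter at chr5:107725756-107726055 is on the minus strand, and the Irf8 promoter at chr8:120736108-120736407 is on the plus strand. Capitals mark the C/EBP match in Gfi1 and the GFI1 match, read on the opposite strand, in Irf8.
Gfi1: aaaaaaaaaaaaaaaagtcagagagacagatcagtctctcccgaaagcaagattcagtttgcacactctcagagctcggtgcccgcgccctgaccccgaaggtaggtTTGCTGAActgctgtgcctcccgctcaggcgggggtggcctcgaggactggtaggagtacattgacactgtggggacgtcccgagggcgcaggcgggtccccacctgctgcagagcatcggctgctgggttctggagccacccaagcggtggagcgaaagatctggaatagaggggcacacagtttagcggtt
Irf8: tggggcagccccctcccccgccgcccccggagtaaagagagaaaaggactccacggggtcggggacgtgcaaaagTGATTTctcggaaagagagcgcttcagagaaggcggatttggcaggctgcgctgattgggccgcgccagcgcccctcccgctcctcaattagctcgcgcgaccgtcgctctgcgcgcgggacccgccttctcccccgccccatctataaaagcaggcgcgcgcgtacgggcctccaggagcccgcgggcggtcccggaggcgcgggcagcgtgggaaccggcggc
The C/EBP match in the Gfi1 promoter begins at position -143 from the start site, and the GFI1 match in the Irf8 promoter at -175. A second Irf8 entry, chr8:120738389-120738688, also held 1 GFI1 match, at -226. No searched motif was found in the entries of Cebpa, Cebpb and Cebpg or in a second entry of Gfi1. The C/EBP motif occurs in 10.8% of the 32851 mouse promoters of this length, the PU.1 motif in 28.3% and the GFI1 motif in 14.0%. A match describes letters only and is not a measured binding site.

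With MIG-Hhex, Cebpe, Gfi1, Irf8 and Cebpa rose and Cebpd fell, while Cebpb and Cebpg did not pass the test. Cebpe had the largest change of the 7, a 3.19-fold rise. Gfi1, Irf8 and Cebpa rose 1.47-fold, 1.46-fold and 1.45-fold, log2 fold changes of 0.56, 0.54 and 0.54. These lay less close together with a trend on GC content removed, at 0.35, 0.48 and 0.27. Gfi1 then missed the threshold with a flow cell term but passed with a term for each replicate (limma adjusted p = 0.0813 and 0.0114). Across all genes, 9.44% were higher and 8.52% lower in the same test, 18.0% in all (limma with a term for the flow cell, Benjamini-Hochberg adjusted p under 0.05), against 4 higher and 1 lower of these 7. The median log2 fold change was 0.54 for the 7 genes and -0.02 for all genes. In RNA from whole populations, more cells of a type and more RNA per cell cannot be told apart.

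**Figure D1:**
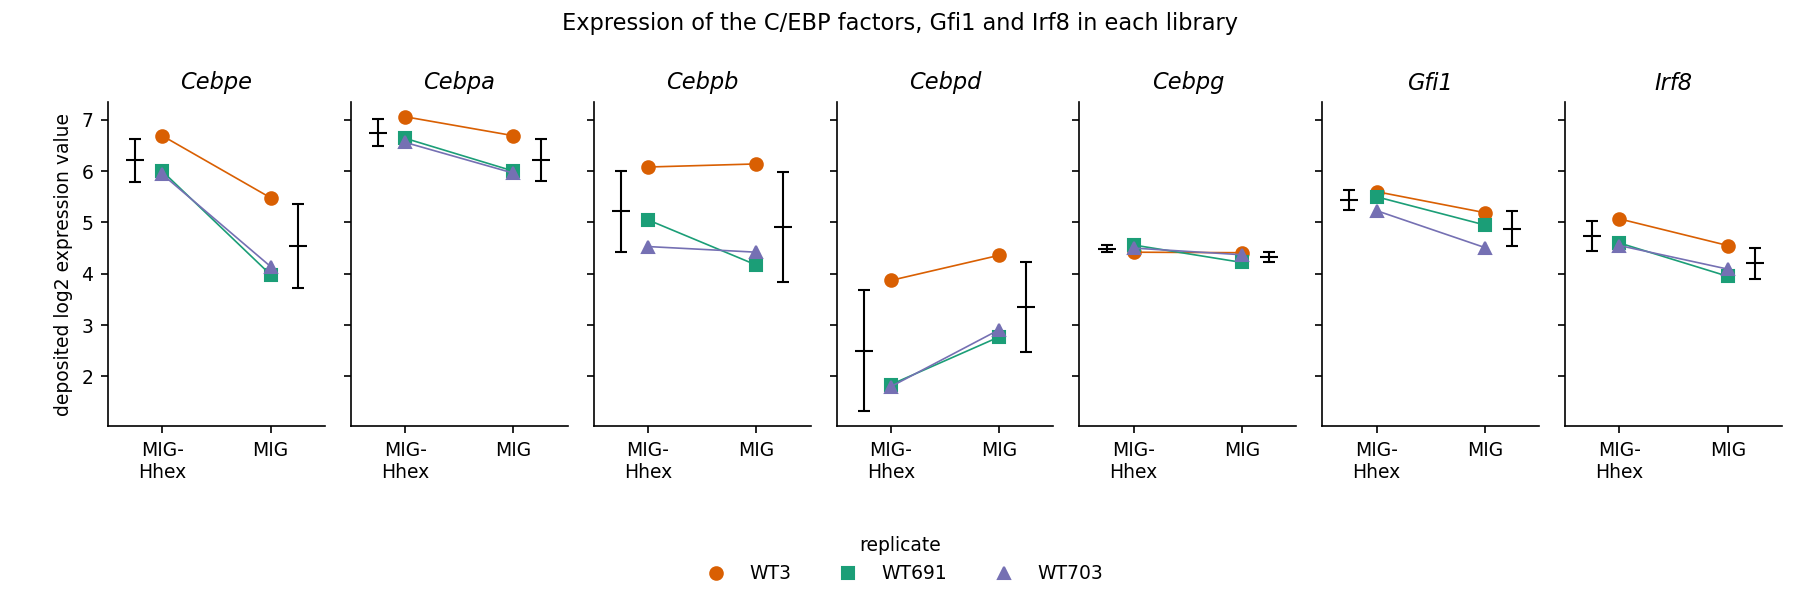
Deposited log2 expression values (vertical axis) of the 7 genes in each library, MIG-Hhex left and MIG right in each panel; lines join the libraries of a replicate and bars give the mean ± SD (n = 3). Cebpe lies at 5.94 or above with MIG-Hhex and at 5.48 or below with MIG, while Cebpd is lower with MIG-Hhex in each pair.

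Cebpe (Entrez 110794) lies on chromosome 14 from 54710363 to 54712174 on the minus strand in GRCm38. Its log2 values were 6.69, 6.00 and 5.94 with MIG-Hhex, against 5.48, 3.98 and 4.14 with MIG. Every MIG-Hhex library was above every MIG library. The means were 6.21 ± 0.42 with MIG-Hhex and 4.54 ± 0.82 with MIG (SD, n = 3 each), a log2 fold change of 1.67 (SE 0.14, limma adjusted p = 0.00162). Cebpe was higher in 3 of 3 pairs, by 1.21, 2.02 and 1.79. Its call was kept when each library, and each replicate's pair of libraries, was left out in turn, 9 fits in all, with log2 fold changes from 1.50 to 1.91. Without 1 or both WT3 libraries the log2 fold change was the same, 1.91. A lone WT3 library is taken up by the flow cell term, so these fits all compare the libraries of flow cell C5LWPANXX. Among all called genes the rise was not extreme, since 148 of the 1148 higher genes had a larger fold change.

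Cebpa (Entrez 12606) lies on chromosome 7 from 35119293 to 35121928 on the plus strand. It was the most abundant of the 7 in both groups, with log2 values of 7.06, 6.64 and 6.56 with MIG-Hhex, against 6.69, 6.00 and 5.96 with MIG. The groups overlapped, because the MIG library of WT3 was above the MIG-Hhex libraries of WT691 and WT703, yet in every pair the MIG-Hhex library was higher. The means were 6.75 ± 0.27 with MIG-Hhex and 6.22 ± 0.41 with MIG (SD, n = 3 each), a log2 fold change of 0.54 (SE 0.07, limma adjusted p = 0.00509). Without replicate WT703 the log2 fold change was 0.51 and missed the threshold (limma adjusted p = 0.0528). Cebpa is rich in G and C, 62.6% of its transcript, and over all genes the fold change increased with GC content (Spearman rho = 0.306 across genes, which are not independent). With that trend removed, the log2 fold change of Cebpa was 0.27 and still passed (limma adjusted p = 0.0202).

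Cebpd (Entrez 12609) lies on chromosome 16 from 15887286 to 15889545 on the plus strand and was the only one of the 7 to fall. Its log2 values were 3.87, 1.84 and 1.80 with MIG-Hhex, against 4.36, 2.77 and 2.91 with MIG. The WT3 libraries were the highest of each group, so the groups overlapped, but the MIG-Hhex library was lower in every pair. The means were 2.50 ± 1.18 with MIG-Hhex and 3.35 ± 0.88 with MIG (SD, n = 3 each), a log2 fold change of -0.85 (SE 0.13, 1.80-fold lower, limma adjusted p = 0.00851). Without replicate WT703 it was -0.71 and missed the threshold (limma adjusted p = 0.0630).

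Cebpb and Cebpg did not pass the threshold. Cebpb (Entrez 12608, chromosome 2 from 167688915 to 167690432, plus strand) had log2 values of 6.08, 5.05 and 4.53 with MIG-Hhex, against 6.14, 4.17 and 4.42 with MIG. Its values differed more between replicates than between vectors: the difference was 0.88 in the pair of WT691 and -0.06 and 0.11 in the pairs of WT3 and WT703. The log2 fold change was 0.31, with a 95% interval from -0.10 to 0.72 (limma adjusted p = 0.252). Its transcript is the richest of the 7 in G and C, at 67.2%, and with the GC trend removed the log2 fold change was 0.04. Without replicate WT691 it was 0.02. Cebpg (Entrez 12611, chromosome 7 from 35046422 to 35056566, minus strand) had log2 values of 4.42, 4.56 and 4.50 with MIG-Hhex, against 4.41, 4.22 and 4.37 with MIG. It was the steadiest of the 7 between replicates, and its groups were separated only by 4.42 against 4.41. The log2 fold change was 0.16, with an interval from -0.02 to 0.34 (limma adjusted p = 0.188). Without replicate WT691 it was 0.07, and with the GC trend removed 0.29. Neither interval excludes a small rise, and that of Cebpb also holds the rises called for Gfi1, Irf8 and Cebpa, 0.54 to 0.56.

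Gfi1 (Entrez 14581) lies on chromosome 5 from 107716655 to 107725805 on the minus strand. Its log2 values were 5.60, 5.50 and 5.23 with MIG-Hhex, against 5.19, 4.95 and 4.51 with MIG. Every MIG-Hhex library was above every MIG library, the closest being 5.23 in WT703 with MIG-Hhex and 5.19 in WT3 with MIG. The means were 5.44 ± 0.19 with MIG-Hhex and 4.88 ± 0.34 with MIG (SD, n = 3 each), a log2 fold change of 0.56 (SE 0.13, limma adjusted p = 0.0335). Gfi1 was higher in 3 of 3 pairs, by 0.41, 0.55 and 0.71. This call was the least stable of the 5. It was lost without the MIG-Hhex library of WT3, WT691 or WT703 (limma adjusted p = 0.0861, 0.113 and 0.0611), without the MIG library of WT3 or WT703 (0.0857 and 0.0624), and without both WT3 libraries (0.0843). The losses without WT3 libraries are a single comparison, that within flow cell C5LWPANXX, and not separate checks. The call was kept without the MIG library of WT691 (limma adjusted p = 0.0278) and without both libraries of WT691 or WT703 (0.024 and 0.0397). It was also kept with all libraries and a term for each replicate, a replicate block, in place of the flow cell (0.00402). With the GC trend removed, the log2 fold change was 0.35. It missed the threshold with the flow cell term (limma adjusted p = 0.0813) and passed with the replicate block (0.0114).

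Irf8 (Entrez 15900) lies on chromosome 8 from 120736358 to 120756694 on the plus strand. Its log2 values were 5.07, 4.60 and 4.55 with MIG-Hhex, against 4.55, 3.95 and 4.09 with MIG. The lowest MIG-Hhex library, WT703, lay at the height of the highest MIG library, WT3, so the groups just overlapped. The means were 4.74 ± 0.29 with MIG-Hhex and 4.20 ± 0.31 with MIG (SD, n = 3 each), a log2 fold change of 0.54 (SE 0.06, limma adjusted p = 0.00372). The pair differences were even, at 0.52, 0.65 and 0.46, and the call was kept in all 9 of these fits (0.49 to 0.58).

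Over the 7 genes, groups did not overlap for 3, each higher with MIG-Hhex (10.2% of all genes), and for 0 lower with MIG-Hhex (11.0% of all genes). Of the 7, 6 had the same sign in all 3 pairs. The share of all genes with the same sign in all 3 pairs was not counted, so this count only describes the 7. Flow cell and replicate moved with these genes: in the MIG group 7 of 7 were higher in WT3 than in both other libraries, against 45.2% of all genes, and in the MIG-Hhex group 6 of 7, against 45.1% of all genes. WT3 was the only replicate on its flow cell, so replicate and flow cell cannot be told apart there. Within flow cell C5LWPANXX, where 10.0% of all genes were called, 4 of the 7 were called. The log2 fold changes there were 1.91 for Cebpe, 0.62 for Cebpa, 0.55 for Irf8 and -1.02 for Cebpd, and Gfi1 had 0.63 (limma adjusted p = 0.0843). In that flow cell both MIG-Hhex libraries were above both MIG libraries for 6 of the 7 genes and below them for 1, Cebpd. The share of all genes separated in this way was not counted, so this only describes the 7 genes. In a fit without a flow cell term, 0 of the 7 passed, against 1.78% of all genes (limma), although 3 of the 7 had an unadjusted p under 0.05.

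**Figure D2:**
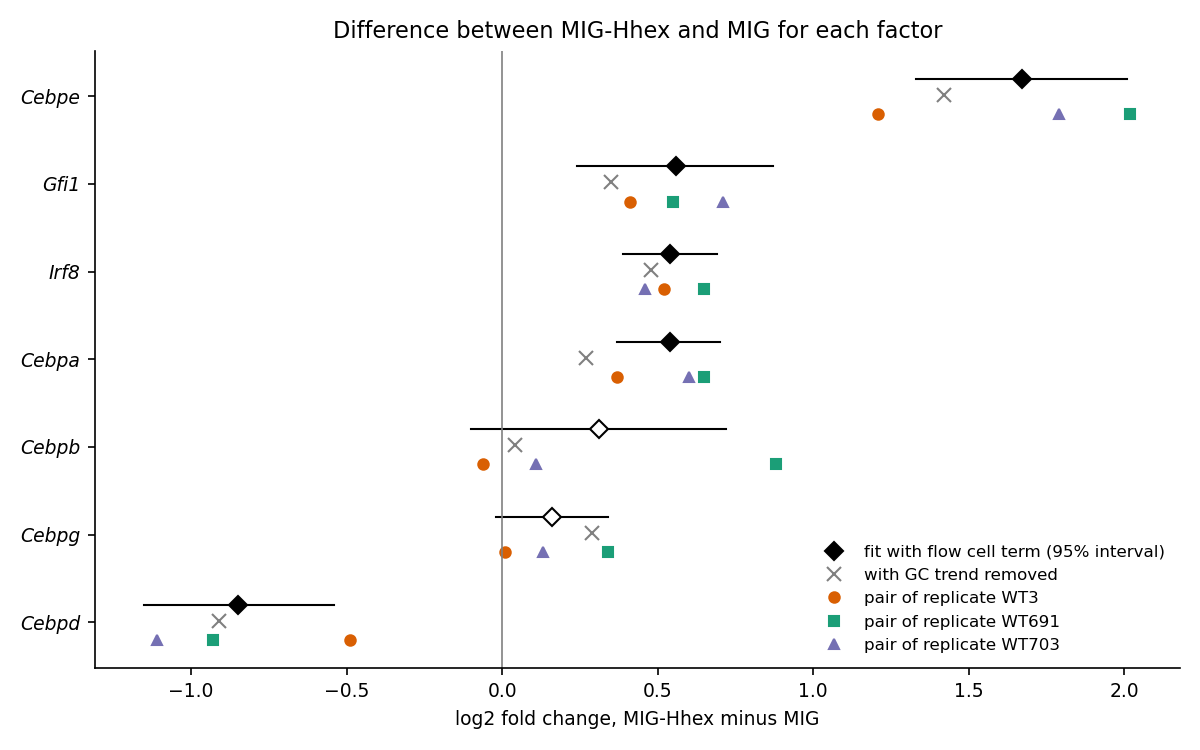
Log2 fold change, MIG-Hhex minus MIG (horizontal axis), of each gene: diamonds with lines give the limma estimate and its 95% interval (filled where the adjusted p is under 0.05), crosses the estimate with the GC trend removed, and coloured symbols the 3 pairs. Cebpe stands at 1.67, Gfi1, Irf8 and Cebpa between 0.54 and 0.56, and Cebpd at -0.85.

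Marker lists of blood cell types were counted in the same test, in which 18.0% of all genes passed. Of 12 measured neutrophil markers, 7 rose and 1 fell, and their summed linear level ran from 3801 to 5084 with MIG-Hhex and from 1922 to 3337 with MIG. Of 7 measured dendritic cell markers, 6 rose and 0 fell, with sums from 73.7 to 123 with MIG-Hhex and from 19.1 to 36.5 with MIG. The 10 monocyte and macrophage markers gave 3 rises and 2 falls, with overlapping sums of 277 to 847 with MIG-Hhex and 344 to 812 with MIG. The 7 eosinophil markers gave 1 rise, or 14.3%, with sums of 58.2 to 114 with MIG-Hhex and 7.95 to 83.4 with MIG, and the 6 mast cell and basophil markers 1 rise and 3 falls, with sums of 145 to 273 with MIG-Hhex and 190 to 424 with MIG. Of the 9 stem and progenitor markers, 0 passed the threshold (limma; 2 had an unadjusted p under 0.05), with sums of 339 to 439 with MIG-Hhex and 414 to 495 with MIG. Megakaryocyte markers (2 rises and 1 fall among 6) and erythroid markers (2 rises and 1 fall among 6) moved in both directions. Of the B and T cell markers, 1 each was measured, Cd79b and Lck, and neither passed. Within flow cell C5LWPANXX, where 10.0% of all genes passed, the counts were 6 of 12 neutrophil, 3 of 7 dendritic cell, 3 of 10 monocyte and macrophage, 1 of 7 eosinophil, 4 of 6 mast cell and basophil, 1 of 6 megakaryocyte, 3 of 6 erythroid and 0 of 9 stem and progenitor markers. In the 9 leave-out fits 625 to 1469 of all 12161 genes passed, the fewest without replicate WT703. Over these fits 5 to 8 neutrophil markers passed, also the fewest without replicate WT703. The dendritic cell count was 3 to 5 and was 3 without any 1 of the MIG-Hhex libraries, without the MIG library of WT3 and without both WT3 libraries. Of its 6 rises, Itgax, Cd74 and H2-Eb1 passed in all 9 leave-out fits, while H2-Aa, H2-Ab1 and Zbtb46 did not (highest limma adjusted p = 0.1, 0.124 and 0.173). The monocyte and macrophage count was 3 to 6, and was 3 without the MIG-Hhex library of WT3 or WT691, the MIG library of WT3 or WT703, or both WT3 libraries. The megakaryocyte count was 1 to 2, with 2 only without the MIG library of WT691 or both WT691 libraries. The erythroid count was 1 to 3, with 1 without the MIG-Hhex or the MIG library of WT691 or WT703 and without both WT703 libraries. The 6 dendritic cell genes were named after their values were seen. The part of changed cell proportions in the changes of the 7 factors was not tested.

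The make-up of the C/EBP pool was described by raising 2 to the deposited log2 value of each C/EBP gene and giving each gene as a share of the sum in its library, on the assumption that values are per length. Cebpe took 30.3%, 28.6% and 29.9% of the sum with MIG-Hhex, against 17.1%, 12.9% and 13.6% with MIG. Its share was thus nearly equal in the 3 MIG-Hhex libraries and higher in each than in any MIG library. Cebpd took 1.59% to 4.29% with MIG-Hhex, against 5.54% to 7.90% with MIG, again without overlap. Cebpa remained the largest share, at 39.3% to 46.0% with MIG-Hhex and 39.8% to 51.9% with MIG, and its groups overlapped. The share of Cebpb was 11.3% to 19.9% with MIG-Hhex and 14.6% to 27.1% with MIG, and that of Cebpg 6.30% to 11.0% with MIG-Hhex and 8.16% to 15.9% with MIG. The sum over the C/EBP genes ran from 205 to 341 with MIG-Hhex and from 123 to 261 with MIG on the linear scale, so the groups overlapped in total.

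**Figure D3:**
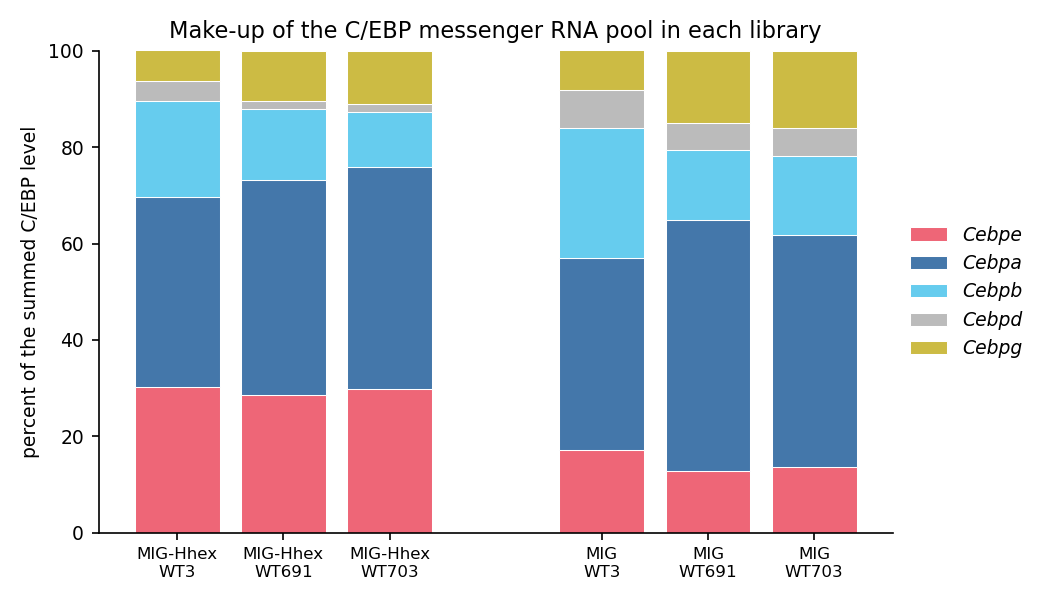
Share of each C/EBP gene in the summed linear level of the C/EBP genes (percent, vertical axis) in each of the 6 libraries, MIG-Hhex left and MIG right. The Cebpe share is 28.6% or more in the MIG-Hhex libraries and 17.1% or less in the MIG libraries.

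The order of mean log2 levels changed accordingly. With MIG-Hhex it ran Cebpa, Cebpe, Gfi1, Cebpb, Irf8, Cebpg and Cebpd. With MIG it ran Cebpa, Cebpb, Gfi1, Cebpe, Cebpg, Irf8 and Cebpd. With MIG-Hhex, Cebpa was above Cebpe and Cebpe above Gfi1 in 3 of 3 libraries, whereas Gfi1 and Cebpb, and Cebpb and Irf8, changed places in 1 of 3. Irf8 was above Cebpg in 3 of 3 MIG-Hhex libraries, though by only 0.04 in the closest. With MIG, only Cebpa at the top and Cebpd at the bottom kept their place in all 3 libraries, and the other neighbours in the order did not differ beyond their spread.

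Differences between genes within a library do not depend on how the library was scaled. Gfi1 minus Irf8, the balance of the granulocyte and the monocyte factor, was 0.53, 0.90 and 0.68 with MIG-Hhex, against 0.63, 1.0 and 0.42 with MIG. The groups lay on top of each other, with means of 0.70 ± 0.19 with MIG-Hhex and 0.68 ± 0.29 with MIG (SD, n = 3 each; exact two-sided permutation p = 0.90). The pair differences were -0.11, -0.10 and 0.26, so the mean difference of 0.02 has no steady sign. Cebpe minus Cebpa, the late against the early C/EBP factor, was -0.37, -0.64 and -0.62 with MIG-Hhex, against -1.22, -2.01 and -1.82 with MIG. The groups did not overlap, and the mean difference was 1.14 (exact two-sided permutation p = 0.10, the smallest that 3 against 3 libraries allow). Cebpe also gained on Cebpb by 1.36, on Cebpd by 2.52 and on Cebpg by 1.51, each without overlap and each with the smallest possible p of 0.10 in the same exact permutation test. These 5 within-library differences were all that were computed, and no adjustment could bring them under 0.05. They were not computed with the GC trend removed. With it removed, the log2 fold changes were 0.35 for Gfi1 and 0.48 for Irf8, against 0.56 and 0.54. For Cebpe, Cebpa, Cebpb, Cebpd and Cebpg they were 1.42, 0.27, 0.04, -0.91 and 0.29, against 1.67, 0.54, 0.31, -0.85 and 0.16.

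**Figure D4:**
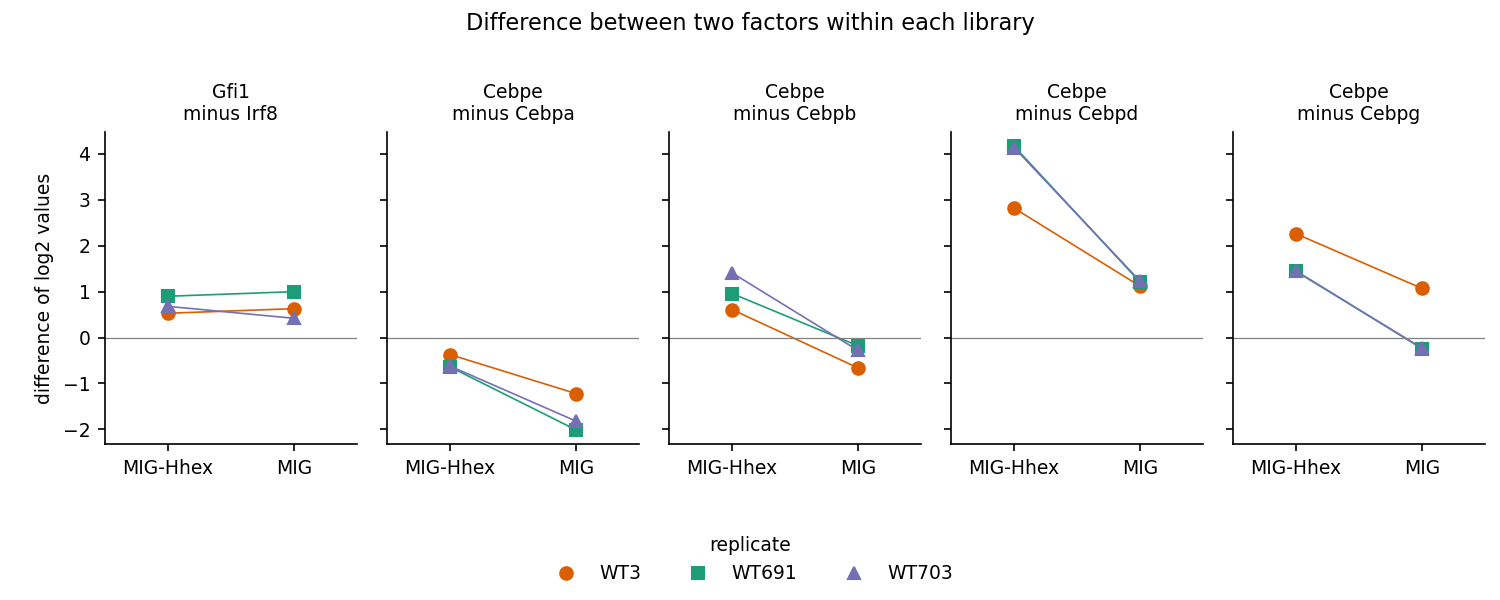
Difference of the log2 values of a pair of genes within each library (vertical axis), MIG-Hhex left and MIG right, with lines joining the libraries of a replicate. Gfi1 minus Irf8 runs from 0.53 to 0.90 with MIG-Hhex and from 0.42 to 1.0 with MIG, while Cebpe minus Cebpa is -0.64 or higher with MIG-Hhex and -1.22 or lower with MIG.

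The sources used here do not say whether reads were counted by strand, and some of the 7 genes overlap a gene on the opposite strand. A430072P03Rik, a transcript on the strand opposite to Gfi1, had a log2 fold change of 0.61 (SE 0.16, limma adjusted p = 0.0410). Its mean log2 values were 1.26 with MIG-Hhex and 0.65 with MIG, against 5.44 and 4.88 for Gfi1. Without strand, reads where these genes overlap cannot be assigned to either, and their part in the Gfi1 values was not tested. Tmem189, opposite to Cebpb, had 0.03, and Spidr, opposite to Cebpd, had -0.02, neither past the threshold. Genes without a value also overlap Cebpa and Cebpg on the opposite strand, and Cebpg and Irf8 on the same strand. These overlaps are those of the GENCODE annotation. Adjoining genes are taken from RefSeq, which places Tmem189 27.4 kb from Cebpb. Cebpa and Cebpg are neighbours 62.7 kb apart. Of 13 other genes that adjoin a member, 8 were measured, and 0 of these passed the threshold (limma; smallest adjusted p = 0.139), and 2 had an unadjusted p under 0.05. They were Tmem189 and Ptpn1 beside Cebpb, Mzt2 beside Cebpd, Slc7a8 beside Cebpe, Pepd beside Cebpg, Rpap2 and Evi5 beside Gfi1, and Cox4i1 beside Irf8. Slc7a8, 10.0 kb from Cebpe, had a log2 fold change of 0.07.

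Over the 6 libraries, each gene centred on its own mean, the members most alike were Cebpa and Irf8, with a root mean square difference of 0.08 in log2 units. Gfi1 differed from Cebpa by 0.17 and from Irf8 by 0.20, and the least alike were Cebpd and Cebpe, at 1.34. Among all genes, the profile nearest to Cebpa was that of Tmem109 at 0.0587, followed by Gadd45b and Pnp2. Pnp2, a purine nucleoside phosphorylase, was also the nearest to Irf8, at 0.0569, followed by Pgpep1 and Tfeb. Slc8b1, Hpse and Sepn1 were nearest to Gfi1, at 0.0432 to 0.0570. Cebpe had nearest profiles at 0.179 to 0.202, those of Tspan33, Kdelr3 and Zbtb46, and the nearest to Cebpd were Abcb4 at 0.152 and Tmem53 at 0.191. These rankings describe 6 libraries of which pairs share a replicate.

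Lists of genes around the 7 factors were counted in the same test, in which 18.0% of all genes passed. Some genes stand in several of these lists. Among 13 basic leucine zipper partners and protein regulators of C/EBP factors, 2 rose and 4 fell; the median log2 fold change was -0.22, against -0.02 for all genes. The tribbles pseudokinases Trib1 and Trib2 both bring C/EBPα protein to the ubiquitin ligase Cop1 for degradation, and they moved in opposite directions. Trib1 had log2 values of 0.24, 1.03 and 1.23 with MIG-Hhex, against -0.46, -0.06 and -0.26 with MIG, without overlap, and rose by 1.09 (SE 0.20, limma adjusted p = 0.0162). Trib2 had values of -2.46, -4.10 and -4.18 with MIG-Hhex, against -0.63, -1.28 and -0.73 with MIG, and fell by 2.70 (SE 0.44, limma adjusted p = 0.0107). Both sit low on the log2 scale, where the size of a change depends most on how zero counts were handled. Cop1 fell by 0.61 and Trib3, another tribbles gene, rose by 0.61. Jun, a zipper factor that can pair with C/EBPα, had values of 2.09, 2.33 and 2.00 with MIG-Hhex, against 2.88, 3.15 and 2.99 with MIG, and fell by 0.87 (SE 0.12, limma adjusted p = 0.00621), while Atf4, named after its values were seen, fell by 0.22. In the 9 leave-out fits 625 to 1469 of all 12161 genes passed, the fewest without replicate WT703. Over these fits 1 to 4 of the 13 listed genes passed. The lowest count was without the MIG library of WT703 or both WT703 libraries. Of the genes named here, Jun alone passed in all 9 leave-out fits.

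Of 12 genes that encode corepressors of GFI1 or its paralogue, 1 passed, Gse1, a subunit of the LSD1 complex, at 0.66 (limma adjusted p = 0.0325), and 8.33% of this list is below the share over all genes. Over the leave-out fits the count was 0 to 2. It was 2 without either or both WT3 libraries and 0 without either or both libraries of WT691 or of WT703. Kdm1a, which encodes LSD1 itself, Rcor1 and the paralogue Gfi1b, named after their values were seen, had log2 fold changes of -0.13, 0.32 and 0.58, none past the threshold. Of 8 measured IRF genes, 3 rose, 0 fell and the median was 0.55. Beside Irf8 they included Irf5, an interferon regulatory factor of macrophages. Irf5 had log2 values of 4.32, 4.02 and 3.65 with MIG-Hhex, against 3.66, 2.56 and 1.87 with MIG, and rose by 1.30 (SE 0.26, limma adjusted p = 0.0195). The groups overlapped by the MIG library of WT3. With the replicate block, where 2979 of all 12161 genes passed, 5 of 8 passed. Over the leave-out fits 1 to 3 passed. Irf8 alone passed without the MIG-Hhex library of WT691 or WT703 and without both WT703 libraries.

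Of 26 measured other factors of the granulocyte and monocyte choice, 9 rose, 3 fell and the median was 0.22. Id2, which blocks helix-loop-helix factors from binding DNA, rose by 1.08, Nr4a1, an orphan nuclear receptor needed for patrolling monocytes, by 1.21, and Maf, a zipper factor of macrophages, by 1.79 (limma adjusted p = 0.00453, 0.00523 and 0.00581). Meis1, a homeobox factor of stem cells, had -0.79, Tcf4, a factor of plasmacytoid dendritic cells, -0.50 and Stat5b -0.22, each past the threshold. Id2, Nr4a1 and Maf passed in all 9 leave-out fits, and Meis1, Tcf4 and Stat5b did not (highest limma adjusted p = 0.0584, 0.0837 and 0.183). Over the leave-out fits 4 to 10 of the 26 passed, the fewest without replicate WT703. Spi1, which encodes PU.1 and was named after its values were seen, had 0.28 (limma adjusted p = 0.0532, and 0.0197 with the replicate block).

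Of 23 granulocyte genes downstream of C/EBP factors, 10 rose, 4 fell and the median was 0.48. Most of the measured neutrophil markers counted above are also in this list, so the counts are not separate results. Ngp, neutrophilic granule protein and a target of C/EBPε, had log2 values of 8.32, 8.53 and 8.59 with MIG-Hhex, against 5.97, 6.25 and 6.99 with MIG, and rose 4.22-fold (log2 2.08, SE 0.19, limma adjusted p = 0.00191). Cxcr2, the chemokine receptor of mature neutrophils, had values of 3.19, 4.69 and 4.58 with MIG-Hhex, against 1.30, 2.81 and 2.27 with MIG, and rose 4.07-fold (log2 2.03, SE 0.15, limma adjusted p = 0.00118). Neither gene's groups overlapped. Mmp9, gelatinase B, rose by 2.97, and its MIG values were all below 0. Mpo, the peroxidase of primary granules, had values of 8.79, 8.39 and 6.32 with MIG-Hhex, against 11.37, 10.91 and 10.60 with MIG, and fell 8.70-fold (log2 fold change -3.12, SE 0.50, limma adjusted p = 0.0105). Ms4a3 fell by 1.84 and Mmp8, neutrophil collagenase, by 1.94. Mmp8 is a late granule gene, as Ngp and Mmp9 are, so the late genes of this list did not all move one way. Of the 6, Mmp9 and Mmp8 did not pass in every leave-out fit (highest limma adjusted p = 0.0601 and 0.0534). The G-CSF receptor gene Csf3r, named after its values were seen, had 0.39 (limma adjusted p = 0.0710, and 0.00702 with the replicate block).

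Of 23 measured monocyte and dendritic cell genes downstream of IRF8, 10 rose, 3 fell and the median was 0.55. This list shares genes with the dendritic cell and the monocyte and macrophage markers counted above, so these counts are not separate either. The rises with the smallest p were those of Tlr9, Id2 and Ciita. Tlr9, the endosomal DNA sensor, had log2 values of 1.17, 1.34 and 1.16 with MIG-Hhex, against -0.52, -0.41 and -0.14 with MIG, and rose by 1.58 (SE 0.17, limma adjusted p = 0.00316). Ciita, the master activator of MHC class II genes, had values of -1.11, -0.83 and -1.11 with MIG-Hhex, against -4.12, -4.26 and -3.99 with MIG, and rose by 3.10 (SE 0.39, limma adjusted p = 0.00483), at a low level in both groups. Neither gene's groups overlapped. The falls were those of Ccr2, F13a1 and Cybb. Ccr2, the chemokine receptor of inflammatory monocytes, had values of 4.09, 4.08 and 4.25 with MIG-Hhex, against 5.58, 6.41 and 6.56 with MIG, and fell 4.12-fold (log2 fold change -2.04, SE 0.17, limma adjusted p = 0.00147). F13a1, a coagulation factor made by monocytes, fell by 2.69 and Cybb, the NADPH oxidase subunit gp91phox, by 1.62. Cybb did not pass in every leave-out fit (highest limma adjusted p = 0.0978), and over these fits 6 to 11 of the 23 passed, the fewest without the MIG-Hhex library of WT691. Csf1r and Klf4, a monocyte receptor and an IRF8 target named after their values were seen, had 0.97 and -1.08, short of the threshold (limma adjusted p = 0.0609 and 0.195, but 0.00146 and 0.0206 with the replicate block).

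Of 17 measured genes known to be repressed by GFI1, 4 rose, 2 fell and the median was 0.22. The rises were those of Irf8, Id2, Nab2 and the cell cycle inhibitor gene Cdkn1a, by 0.54, 1.08, 0.59 and 0.68, with Nab2 named after its values were seen, and the falls included that of Meis1, by 0.79. Irf8 and Id2 passed in all 9 leave-out fits, and over these fits 3 to 7 of the 17 passed, the fewest without the MIG library of WT703. Gfi1 itself rose in the same comparison, with the call that was lost in some leave-out fits. Of 14 cytokine receptors and signal transducers upstream of the 7 factors, 3 rose, 2 fell and the median was 0.12. The IL-6 receptor gene Il6ra rose by 0.96, the common beta chain gene Csf2rb by 0.62 and Stat3, which acts upstream of Cebpb and Cebpd, by 0.21. Il1r1, an IL-1 receptor, fell by 0.71 and Stat5b by 0.22. Over the leave-out fits 1 to 6 of the 14 passed, Il6ra alone without either WT3 library. With the replicate block, where 2979 of all 12161 genes passed, 9 of 14 passed.

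Within flow cell C5LWPANXX 10.0% of all genes passed the threshold. The counts there were 3 of 13 partners and regulators of C/EBP factors, 2 of 12 corepressor genes, 3 of 8 IRF genes and 10 of 26 other factors. They were 10 of 23 granulocyte genes, 7 of 23 monocyte and dendritic cell genes, 6 of 17 genes repressed by GFI1 and 1 of 14 receptors and transducers.

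**Figure D5:**
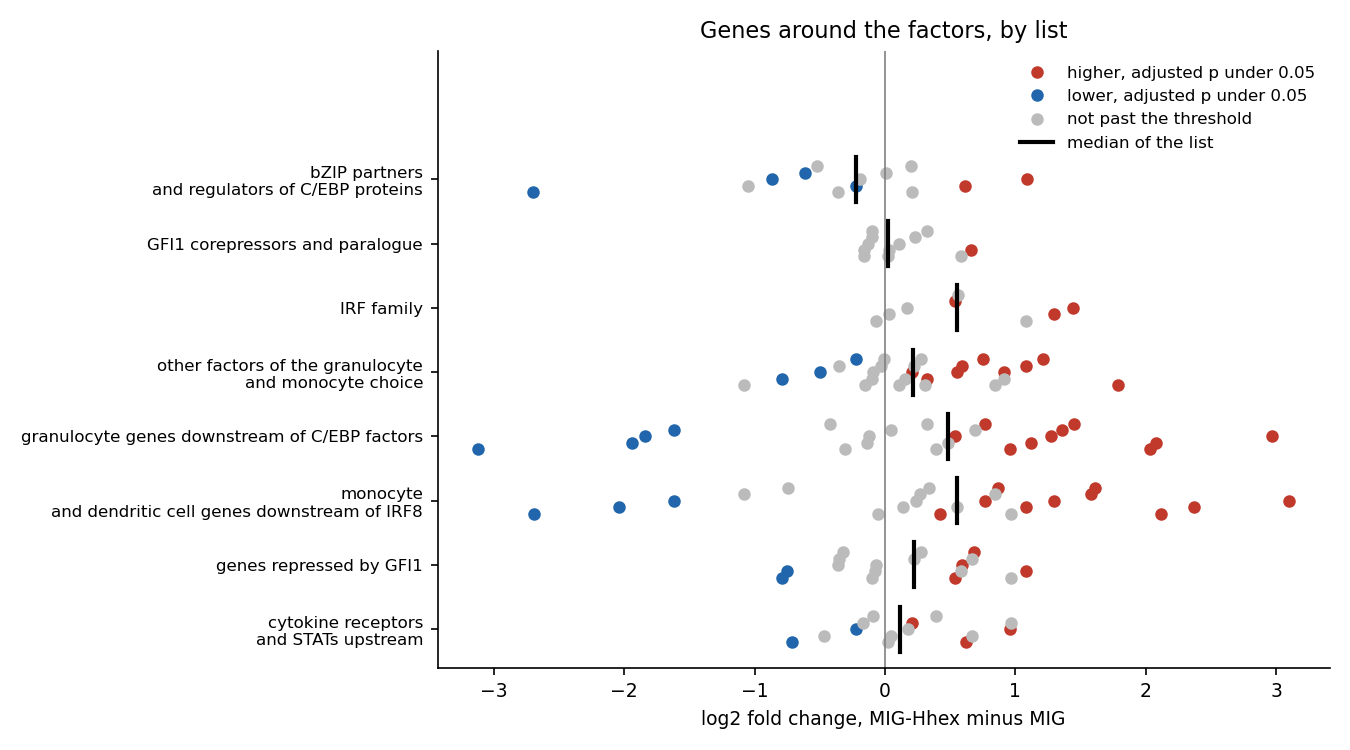
Log2 fold change, MIG-Hhex minus MIG (horizontal axis), of each measured gene of 8 lists (rows); red and blue points passed the threshold as higher and lower, grey points did not, and black bars mark list medians. The granulocyte list has 10 higher and 4 lower genes and the monocyte and dendritic cell list 10 higher and 3 lower.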

How the data were processed

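The authors deposited 1 table of normalized log2 values, with a row per Entrez gene and a column per library. The tools were Subread, featureCounts, edgeR and limma on build mm10, per the submitters' processing notes; no versions, step order or normalization are stated in the sources used here. The groups were compared in R 4.3.3 with limma 3.58.1, using terms for flow cell and vector, eBayes with a mean-variance trend, and Benjamini-Hochberg adjustment over all 12161 genes. Requiring values above the library minimum in 3 libraries removed 0 genes. Coordinates and promoters are from RefSeq GRCm38.p6, and GC content from GENCODE transcripts for 96.5% of genes.

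The 7 members and all lists were chosen with earlier results of these data known. The rule for named genes took the members, up to 3 genes with the smallest p past the threshold per direction and list, 3 nearest profiles per called member, and adjoining genes. Some genes that it names are not reported here. Same-numbered libraries deviated together (correlations 0.742, 0.585 and 0.656 for WT3, WT691 and WT703), so the numbers pair the samples. A replicate block, removal of a GC trend, quantile normalization, low-value settings, a single flow cell and 9 leave-out fits were tried. The leave-out fits without 1 or both WT3 libraries repeat the single flow cell comparison. The fit was tested on simulated data.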

Additional observations from a re-analysis of the deposited data

How the results depend on the processing

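Directions of the 5 called members were kept under each alternative run. Without a flow cell term, Cebpa (0.54), Cebpd (-0.85), Cebpe (1.67), Gfi1 (0.56) and Irf8 (0.54) kept their log2 fold changes but missed the threshold (limma adjusted p = 0.36, 0.682, 0.121, 0.239 and 0.294), so 0 members passed (3 at an unadjusted p under 0.05), 7 list genes, 119 higher and 98 lower genes; this fit leaves the replicate spread in the error. Gfi1 also missed it without a mean-variance trend (0.56, 638 genes lower), within flow cell C5LWPANXX (0.63, with 698 genes higher and 519 lower) and with the GC trend removed (0.35). With the replicate block no member's call changed (Gfi1 limma adjusted p = 0.00402), and the counts were 1506 higher and 1473 lower. With block and GC correction together, 6 members passed and 1807 genes were lower. Cebpg then passed at 0.29 and Gfi1 at 0.35 (limma adjusted p = 0.0476 and 0.0114). Over the 9 leave-out fits, 355 to 835 genes were higher and 270 to 634 lower, 26 to 39 list genes and 3 to 5 members passed, and log2 fold changes ran from 0.48 to 0.62 for Cebpa, from -1.02 to -0.71 for Cebpd and from 0.41 to 0.66 for Gfi1. Gfi1 minus Irf8 was -0.10 without replicate WT703 and 0.08 without WT3. Where a value has no reason beside it, the cause was not tested. Depth is unknown, so values below 0 are the least certain in size.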

Other observations

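Among the 7 measured eosinophil markers, 6 had their lowest value of the 6 libraries in the MIG library of WT703, as did 13.9% of all genes. The granule genes Prg2 and Epx are 2 of the 6. Prg2, the major basic protein, had log2 values of 5.83, 5.49 and 4.64 with MIG-Hhex, against 5.21, 4.63 and 0.54 with MIG, for WT3, WT691 and WT703. Epx, eosinophil peroxidase, had 4.32, 4.03 and 3.13 with MIG-Hhex, against 3.58, 3.23 and -0.79 with MIG. Cebpe, which also acts in eosinophils, was not lowest in that library: its MIG value in WT703 was 4.14, against 3.98 in WT691. Siglecf, a surface lectin of eosinophils, had 2.72, 3.31 and 3.12 with MIG-Hhex, against 1.56, 0.86 and 1.31 with MIG, and did not overlap between groups. These genes were picked after their values were seen.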
